A study of Mus musculus with 6 samples.

Results

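The 10 genes described here encode the adherens junction core of the embryonic mouse lung: the classical cadherins *Cdh1*, *Cdh2*, *Cdh3* and *Cdh11*, and the catenins *Ctnna1*, *Ctnna2*, *Ctnnb1*, *Ctnnd1*, *Ctnnd2* and *Jup*. The rule that picks them is their gene symbol and uses no measured value, although earlier results of these data were known when the set was drawn up. All 10 were found among the 24402 loci of the deposited table. RNA came from whole lungs of C57BL/6 embryos at 12.5 *dpc*. There were 3 libraries from wild-type embryos (controls) and 3 from their littermates of the genotype *Yap-flox/flox; Shh-Cre/+* (*Yap* mutants). In the mutants, Cre made from the *Shh* locus deletes *Yap* in the lung epithelium and not in the mesenchyme, and the Cre insertion also takes up 1 *Shh* allele. Whether a library held the lungs of 1 embryo or of several is not given in the sources used here.

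Classical cadherins are transmembrane proteins that bind a like cadherin on the neighbouring cell through calcium-dependent extracellular repeats. Inside the cell, the tail of a cadherin binds p120-catenin near the membrane and β-catenin or plakoglobin farther along, and α-catenin joins β-catenin to the actin cytoskeleton. β-catenin also serves as the transcriptional partner of the WNT pathway. In the early lung, E-cadherin outlines the branching epithelial tube, whereas N-cadherin and cadherin 11 are known from mesenchyme, mesothelium and other tissues.

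The unit is FPKM, the number of fragments scaled to transcript length and to the mapped fragments of the library, which is a level per length and so can be compared between genes. The table gives 1 pooled value per genotype. The spread between libraries and the depth of each cannot be read from it. No test was made, since none can be computed from pooled values and the deposited p-values were not used, and the differences below are descriptions. A log2 fold change is log2 of the mutant over the control value after adding 0.1 FPKM to each. A gene is called lower or higher when this ratio reaches 1.5-fold and the mean of both values is at least 1 FPKM, a minimum that 12716 loci and all 10 genes met. Shares and medians over loci below are over these 12716, called the tested loci. Because the RNA is from whole lungs, fewer cells of a type and less RNA per cell cannot be told apart.

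Among the 10 genes, 2 were called lower in *Yap* mutant lungs (*Ctnnd2* and *Cdh11*), 1 was called higher (*Ctnna2*), and 7 were within 1.5-fold. Of the tested loci, 3.30% were called lower and 4.44% higher. Any lower value was seen in 6 of the 10 genes, beside 51.8% of the tested loci. Their median log2 fold change was -0.08, and that over the tested loci was -0.01. The most abundant catenins differed little, with log2 fold changes of -0.14 for *Ctnnb1*, -0.01 for *Ctnna1* and 0.04 for *Ctnnd1*. The calls lay in *Cdh11* and in the scarce paralogs *Ctnna2* and *Ctnnd2*.

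**Figure D1:**
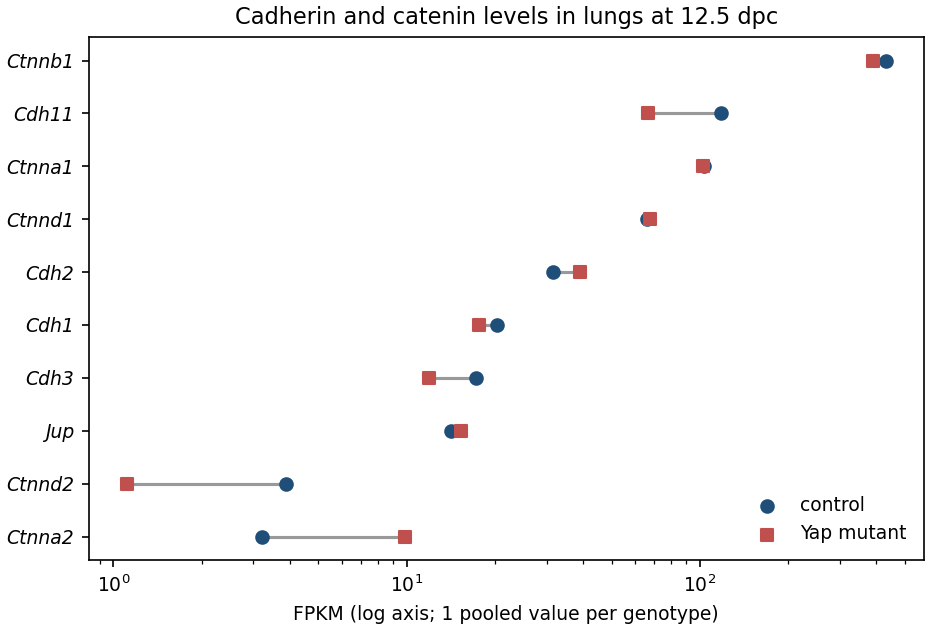
Level of each gene in control (circles) and *Yap* mutant (squares) lungs in FPKM on a log axis, 1 pooled value per genotype, so no error bars are drawn. *Ctnnd2*, *Cdh11* and *Ctnna2* show the widest gaps, and the 2 values of *Ctnna1* (103 and 102 FPKM) lie on each other.

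Several facts of the whole data set bear on these values. *Yap1* itself was at 76.1 FPKM in wild-type lungs and at 65.6 FPKM in the mutants, a value that includes the mesenchyme, where the gene is intact. The value also covers the whole locus, not only the stretch between the LoxP sites that Cre removes. Of 15 epithelial marker genes, 13 had a lower value in the mutants and 9 were called lower. The summed level of the epithelial markers was 505 FPKM in controls and 365 FPKM in mutants, with a median log2 fold change of -0.60. All 10 heart muscle markers were called higher, with sums of 125.5 and 917 FPKM, and 3 of the 4 liver markers above the minimum were called higher, with sums of 9.27 and 41.1 FPKM. For 4 Y-linked genes, *Kdm5d*, *Uty*, *Ddx3y* and *Eif2s3y*, the control values did not exceed 0.0163 FPKM, whereas the mutant values ran from 4.61 to 16.5 FPKM. The sex of the embryos thus differed between the groups, and in every comparison here a difference by sex and one by genotype cannot be told apart. When fold changes were set relative to the epithelial median, 107 of the tested loci were called lower and 6626 higher, in place of 420 and 565.

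*Ctnna2* and *Ctnnd2* carry the largest differences of the set, and the promoter of each is shown for that reason. The windows, from RefSeq on GRCm38.p6, run from 250 bases before to 50 bases after the annotated start and are written 5′ to 3′ on the strand of the gene. They lie at chr6:77979618-77979917 on the minus strand for *Ctnna2* and at chr15:30172284-30172583 on the plus strand for *Ctnnd2*. Capitals mark the letters CACCTG, the E-box that SNAI and ZEB repressors bind in the promoter of E-cadherin.
Ctnna2: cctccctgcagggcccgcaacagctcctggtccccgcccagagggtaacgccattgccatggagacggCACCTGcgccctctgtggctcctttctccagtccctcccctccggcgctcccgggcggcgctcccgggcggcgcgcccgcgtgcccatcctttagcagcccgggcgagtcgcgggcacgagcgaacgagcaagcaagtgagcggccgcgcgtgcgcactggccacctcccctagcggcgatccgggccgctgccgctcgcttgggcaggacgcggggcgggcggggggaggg
Ctnnd2: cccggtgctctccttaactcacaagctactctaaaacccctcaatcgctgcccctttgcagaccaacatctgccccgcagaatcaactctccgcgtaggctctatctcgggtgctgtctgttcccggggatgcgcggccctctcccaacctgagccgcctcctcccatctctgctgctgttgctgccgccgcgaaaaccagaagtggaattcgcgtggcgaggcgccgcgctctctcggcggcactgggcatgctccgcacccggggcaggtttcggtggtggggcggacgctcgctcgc

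The windows were searched on both strands for GGAATG, the core letters of a site for TEAD factors, through which YAP acts. The same search was made for the E-box. No window of these genes held both motifs, so none overlapped. RefSeq windows were searched for 5 of the 10 genes, *Ctnna2*, *Ctnnb1*, *Ctnnd1*, *Ctnnd2* and *Jup*, with 7 windows in all. The search left out chromosome 18, where *Cdh2* and *Ctnna1* lie, and no window was available for *Cdh1*, *Cdh3* and *Cdh11*. No cadherin promoter was thus searched. The windows of *Ctnnb1* overlap each other. None (0) of the 7 windows held the TEAD letters, which occur in 14.7% of the 32851 windows of the table. The E-box letters occurred in 1 of the 7, that of *Ctnna2*, starting at position -182 from the start of transcription, and occur in 20.2% of all windows. The *Ctnna2* window was 75.3% G and C with 38 CpG steps, more than in 95% of all windows. The *Ctnnd2* window was 64.7% G and C with 28 CpG steps, and the median of all windows was 7. A match of letters is a description of the window and not a binding site.

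The 4 cadherins are described first. *Cdh11*, which encodes cadherin 11, a type II cadherin of mesenchymal cells, lies on chromosome 8 from 102632995 to 102785111 (mm10). It was at 118 FPKM in wild-type lungs and at 66.8 FPKM in the mutants. The control value was thus 1.77-fold the mutant value, a log2 fold change of -0.82, and 1.84% of the tested loci had as low a log2 fold change or a lower one. *Cdh11* was the most abundant of these cadherins in both genotypes. Among the 6530 loci with a mean of 10 to 100 FPKM, the range in which *Cdh11* falls, 1.59% were called lower.

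Most mesenchymal markers did not share the direction of *Cdh11*. The summed level of 11 mesenchymal marker loci was 1596 FPKM in control and 1626 FPKM in mutant lungs. Of these markers 9 had a higher value in the mutants, 1 was called higher (*Postn*) and 1 was called lower. The lower one was *Foxf1*, a transcription factor gene of the lung mesenchyme, with 83.5 and 41.6 FPKM, a log2 fold change lower than that of *Cdh11*. The highest markers, *Col3a1* and *Vim*, had log2 fold changes of -0.02 and 0.06. The part of mesenchymal cells in the value of *Cdh11* was not tested. *Foxf1* and *Postn* are named here after their values were seen.

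*Cdh2* encodes N-cadherin, a type I cadherin found in mesenchyme, mesothelium, nerve tissue and heart muscle, and lies on chromosome 18 from 16567823 to 16809049. Its level was 31.6 FPKM in control and 39.1 FPKM in mutant lungs, which is 1.24-fold higher and short of the 1.5-fold bound. The log2 fold change was 0.31, and 10.3% of the tested loci had one as high or higher. Heart muscle markers were higher in the same lungs, with sums of 125.5 and 917 FPKM. Among them, *Myl7* had 39.3 and 306 FPKM and *Myl4* had 21.3 and 210.3 FPKM, in control and mutant lungs. No heart muscle marker was listed at 0 in either genotype. Mesothelial markers had sums of 57.7 and 70.9 FPKM, where the highest, *Upk3b* and *Wt1*, each had a log2 fold change of 0.31. Mesenchymal markers had sums of 1596 and 1626 FPKM. Neuronal and glial markers went the other way, with sums of 25.3 FPKM in control and 17.8 FPKM in mutant lungs. The part of these tissues in the value of *Cdh2* was not tested.

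*Cdh1*, which encodes E-cadherin, the cadherin of the epithelium, lies on chromosome 8 from 106603368 to 106670246. It was at 20.3 FPKM in wild-type lungs and at 17.7 FPKM in the mutants. The log2 fold change was -0.20, but relative to the epithelial markers, whose median was -0.60, it was 0.40. Of the 15 epithelial markers, 2 had values nearest to no change, *Spint2* (82.2 and 77.6 FPKM) and *Cldn7* (28.8 and 30.5 FPKM), whereas *Cldn6* had 98.0 and 64.7 FPKM. *Cdh1* thus lay between these 2 and the median of the list.

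*Cdh3* encodes P-cadherin, an epithelial cadherin whose gene lies beside *Cdh1* on chromosome 8, from 106510418 to 106556908, with 46.5 kb between their loci. It was at 17.2 FPKM in wild-type lungs and at 11.9 FPKM in the mutants, a 1.44-fold difference just under the bound. Its log2 fold change of -0.53 was near the epithelial median, and relative to that median it turned to 0.07. A log2 fold change as low or lower was seen at 3.82% of the tested loci. The neighbours *Cdh1* and *Cdh3*, of like level in control lungs, therefore differed in the size of their change, though without libraries of their own this cannot be tested.

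**Figure D2:**
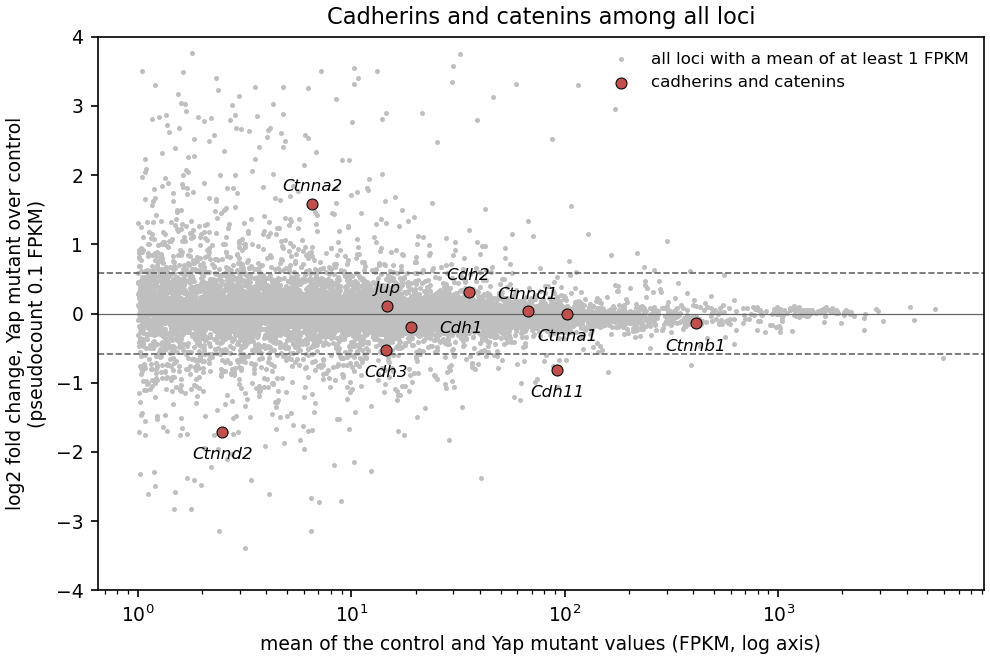
Log2 of the mutant over the control value (0.1 FPKM added to each) against the mean of both values in FPKM on a log axis, for the 12716 loci that met the minimum (grey) and the 10 genes (red), with dashed lines at 1.5-fold and 29 loci beyond the axis of 4 in either direction. *Ctnna2*, *Ctnnd2* and *Cdh11* lie outside the dashed lines. Relative to the epithelial marker median, *Cdh1*, *Cdh3*, *Ctnna1* and *Ctnnb1* would move above 0, and 3.21% of tested loci would stay below it.

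The makeup of the sum of these 4 cadherins differed accordingly. That sum leaves out other classical cadherins, such as *Cdh5* with 36.3 FPKM in control and 39.9 FPKM in mutant lungs. The FPKM of the 4 cadherins summed to 187 in control and 136 in mutant lungs, a log2 fold change of -0.47. Its sign turns relative to the epithelial median of -0.60, a shift that leaves a lower value at 3.21% of the tested loci. *Cdh11* made up 63.1% of that sum in control and 49.3% in mutant lungs. The share of *Cdh2* was 16.9% in control and 28.9% in mutant lungs. *Cdh1* made up 10.8% and 13.0%, and *Cdh3* 9.21% and 8.81%. The level of *Cdh11* was 3.73 times that of *Cdh2* in control and 1.71 times in mutant lungs.

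Among the catenins, *Ctnnb1* and *Jup* encode the paralogs that bind the distal part of the cadherin tail. *Ctnnb1* (β-catenin), on chromosome 9 from 120933400 to 120960507, was the most abundant of the 10 genes, at 430.4 FPKM in wild-type lungs and 389.7 FPKM in the mutants. It had a higher control level than 98.7% of the tested loci. Its log2 fold change was -0.14, and it was 0.46 relative to the epithelial median. *Jup* encodes plakoglobin, which serves in adherens junctions and desmosomes, and lies on chromosome 11 from 100368856 to 100397790. *Jup* was at 14.2 FPKM in wild-type lungs and at 15.3 FPKM in the mutants, a log2 fold change of 0.11. The level of *Ctnnb1* was 30.4 times that of *Jup* in control and 25.5 times in mutant lungs.

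A read that lies wholly within a stretch shared by paralogs cannot be assigned to one of them, whereas a longer read reaches past it. The length of the reads was not set against the runs below. In GENCODE M21 the longest run of identical bases shared by the coding sequences of *Ctnnb1* and *Jup* is 20 bases long and begins at base 1000 of *Ctnnb1* (2343 coding bases) and base 973 of *Jup* (2235 coding bases). It is shown with the corresponding run of the δ-catenin pair, to let the length of such stretches be seen.
Ctnnb1 and Jup: gagaagcttctgtggaccac
Ctnnd1 and Ctnnd2: aagaaggatgga

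The run shared by *Ctnnd1* and *Ctnnd2* was 12 bases long, and that of *Ctnna1* and *Ctnna2* was 35 bases. Between pairs of the 4 cadherins it ranged from 12 bases (*Cdh3* and *Cdh11*) to 26 bases (*Cdh1* and *Cdh2*).

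The α-catenins link the complex to actin. *Ctnna1* (αE-catenin, the broadly expressed form), on chromosome 18 from 35118912 to 35254775, was at 103 FPKM in wild-type lungs and at 102 FPKM in the mutants. A change at least as large in either direction was seen at 93.6% of the tested loci. *Ctnna2* encodes αN-catenin, a form known from neurons, and lies on chromosome 6 from 76881637 to 77979667. *Ctnna2* was at 3.22 FPKM in wild-type lungs and at 9.85 FPKM in the mutants, a 3.07-fold higher value and a log2 fold change of 1.59. A log2 fold change as high or higher was seen at 1.13% of the tested loci. Among the 5412 loci with a mean of 1 to 10 FPKM, where *Ctnna2* and *Ctnnd2* both fall, 8.15% were called higher and 5.73% lower.

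With this difference *Ctnna2* made up 3.02% of the FPKM of both α-catenins in control and 8.79% in mutant lungs. The 2 values of the pair summed to 106 FPKM in control and 112 FPKM in mutant lungs. The gene *Lrrtm1*, a neuronal adhesion gene on the opposite strand, lies within *Ctnna2* (from 77242689 to 77257791 in GENCODE M21) and is listed under the same locus. *Lrrtm1* was at 0.877 FPKM in wild-type lungs and at 1.92 FPKM in the mutants. The annotated exons of *Lrrtm1* and *Ctnna2* share 0 bases. The third α-catenin gene, *Ctnna3* (αT-catenin, known from heart muscle), was at 0.0534 and 0.363 FPKM, under the minimum.

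The δ-catenins bind the part of the cadherin tail next to the membrane. *Ctnnd1*, which encodes p120-catenin, a protein that keeps cadherins at the cell surface, lies on chromosome 2 from 84600781 to 84650762. It was at 66.1 FPKM in wild-type lungs and at 67.8 FPKM in the mutants, a log2 fold change of 0.04. *Ctnnd2* encodes δ-catenin, a relative known from neurons, and lies on chromosome 15 from 30172544 to 31029343. *Ctnnd2* was at 3.87 FPKM in wild-type lungs and at 1.11 FPKM in the mutants, so that the control value was 3.48-fold the mutant value. Its log2 fold change of -1.71 was the lowest of the 10 genes, and 0.393% of the tested loci were as low or lower. In mutant lungs 1.83% of the tested loci had a lower level than *Ctnnd2*. That share is kept low by the minimum of 1 FPKM, which leaves out the scarcer of the 24402 loci.

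*Ctnnd2* made up 5.53% of the FPKM of the δ-catenin pair in control and 1.61% in mutant lungs, while the sum of the pair was 70.0 and 68.9 FPKM. The 2 catenins known from neurons thus went in opposite directions. In control lungs they had like levels, with *Ctnna2* at 0.832 times the level of *Ctnnd2*, and in mutant lungs *Ctnna2* was at 8.87 times the level of *Ctnnd2*. Of 7 neuronal and glial markers above the minimum, 6 had a lower value in the mutants and 3 were called lower, with sums over the list of 25.3 and 17.8 FPKM. None (0) of these markers was listed at 0. The highest, *Fabp7* and *Stmn2*, had log2 fold changes of -0.21 and -0.95. The direction of *Ctnnd2* was thus that of these markers and the direction of *Ctnna2* was not. The part of nerve tissue in either value was not tested.

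**Figure D3:**
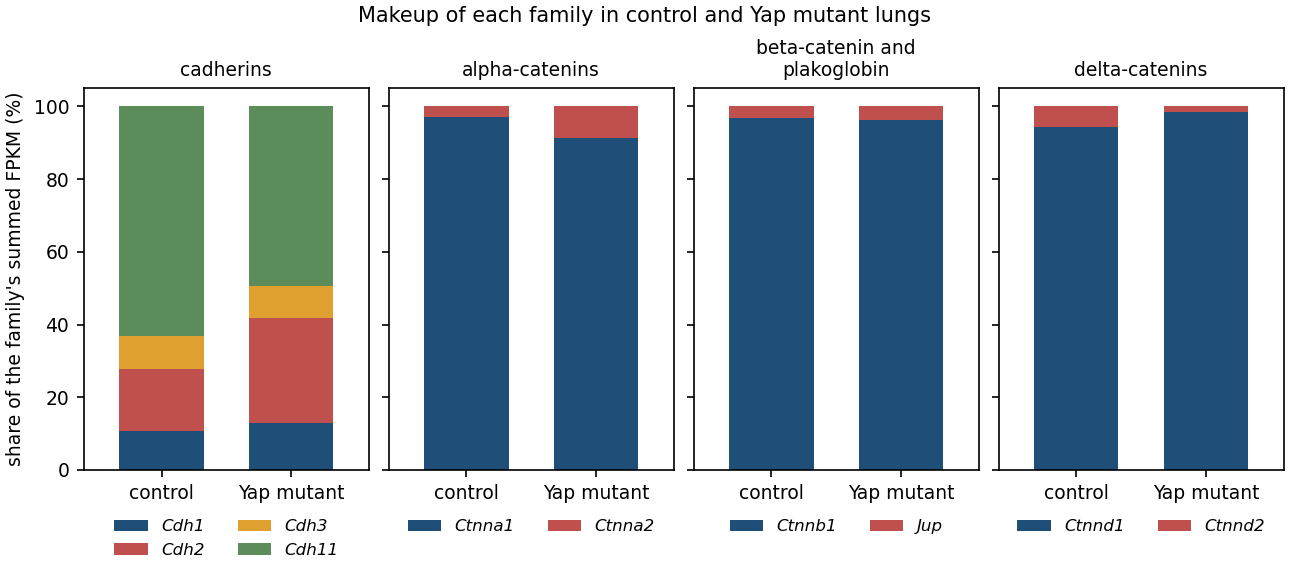
Share of each gene in the summed FPKM of its family, in percent, in control and *Yap* mutant lungs (stacked bars, 1 pooled value per genotype). *Cdh11* goes from 63.1% to 49.3% of the sum of the 4 cadherins described here. *Ctnna2* goes from 3.02% to 8.79% of the α-catenin pair and *Ctnnd2* from 5.53% to 1.61% of the δ-catenin pair. *Jup* is at 3.19% and 3.78% beside *Ctnnb1*.

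In order of level, control lungs had *Ctnnb1*, *Cdh11*, *Ctnna1*, *Ctnnd1*, *Cdh2*, *Cdh1*, *Cdh3*, *Jup*, *Ctnnd2* and *Ctnna2*. In mutant lungs *Cdh11* moved from rank 2 to rank 4, *Jup* passed *Cdh3*, and *Ctnna2* passed *Ctnnd2*. Whether neighbours in this order differ beyond the spread between libraries is unknown. The 6 catenins summed to 621 FPKM in control and 586 FPKM in mutant lungs, which was 3.32 times the sum of the 4 cadherins in controls and 4.32 times in mutants.

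The remaining classical cadherins were mostly scarce. Among type I cadherins, *Cdh4* and *Cdh15* stayed under 1 FPKM in both genotypes, so that *Cdh1*, *Cdh2* and *Cdh3* were the members above the minimum. Of 13 type II cadherins, 5 were above the minimum, and *Cdh11* was the 1 called. Of the tested loci, 3.30% were called lower and 4.44% higher. *Cdh5*, the VE-cadherin gene of endothelium, was at 36.3 FPKM in wild-type lungs and at 39.9 FPKM in the mutants, a log2 fold change of 0.14. The summed level of 8 endothelial markers was 192 and 208 FPKM, and the highest of them, *Egfl7* and *Pecam1*, had log2 fold changes of 0.10 and 0.19. For *Cdh24*, *Cdh8* and *Cdh6* the log2 fold changes were -0.41, -0.18 and 0.04. The medians were -0.20 over the 3 type I and -0.18 over the 5 type II cadherins tested, beside -0.01 over the tested loci.

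Relatives and partners of the catenins were largely within 1.5-fold, as were most tested loci. Of the tested loci, 3.30% were called lower and 4.44% higher. Of 7 catenin relatives above the minimum, 1 was called lower and none (0) higher, with a median of -0.24. The one called was *Pkp3*, which encodes a desmosomal plakophilin, with 1.83 and 0.916 FPKM. *Ctnnbip1*, an inhibitor of the binding of β-catenin to TCF factors, and *Ctnnbl1* had log2 fold changes of 0.12 and -0.06. Plakophilin 4 (*Pkp4*) had 24.1 and 16.3 FPKM, just under the bound. Among 14 loci for the plaque and its actin linkers, 1 was called lower, *Camsap3*, which anchors microtubule minus ends, with 3.90 and 2.18 FPKM. The most abundant were the α-actinin genes *Actn4* and *Actn1*, with log2 fold changes of -0.26 and -0.20, and vinculin (*Vcl*), a binding partner of α-catenin under tension, had -0.11. The median of these loci was -0.08. Of the 4 nectins and relatives above the minimum, none (0) was called, with a median of -0.08, and *Pvrl2* and *Pvrl3* (nectin 2 and 3) had log2 fold changes of -0.08 and -0.31.

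Genes that set the amount of β-catenin had the narrowest range of log2 fold changes of the 10 junction lists. None (0) of 9 genes of the β-catenin destruction machinery was called, beside 3.30% of the tested loci called lower and 4.44% higher. The log2 fold changes of the 9 ran from -0.08 (*Axin1*) to 0.15 (*Axin2*, also a WNT target). *Csnk1a1* and *Gsk3a*, the most abundant, had log2 fold changes of 0.04 and -0.02. The median was 0.05. Of 14 genes for the processing, traffic and phosphorylation of cadherins, 1 was called in each direction, with a median of -0.02. *Furin*, which encodes a protease that removes the propeptide of cadherins, was at 22.1 FPKM in wild-type lungs and at 36.3 FPKM in the mutants, a log2 fold change of 0.71. *Ptprj*, a receptor phosphatase gene, had 3.64 and 1.98 FPKM. *Rab11a*, which recycles E-cadherin, and *Adam10*, which sheds it, were the most abundant, with log2 fold changes of 0.07 and 0.30.

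Transcription factors known to repress *Cdh1* were also measured. Of 9 loci (*Snai1* is listed as 2 of them), 1 was called lower and none (0) higher, beside 3.30% and 4.44% of the tested loci. The median of the 9 was 0.02. *Twist2* was the one called, with 20.1 FPKM in control and 11.3 FPKM in mutant lungs. *Tcf3* and *Snai2*, the most abundant, had log2 fold changes of -0.10 and -0.21. *Zeb1*, with 7.91 and 11.1 FPKM, was within 1.5-fold. The 2 entries of *Snai1* share coordinates but had 66.6 and 63.7 FPKM in 1 and 3.43 and 3.48 FPKM in the other. The median of 0.02 is the log2 fold change of the scarcer *Snai1* entry.

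**Figure D4:**
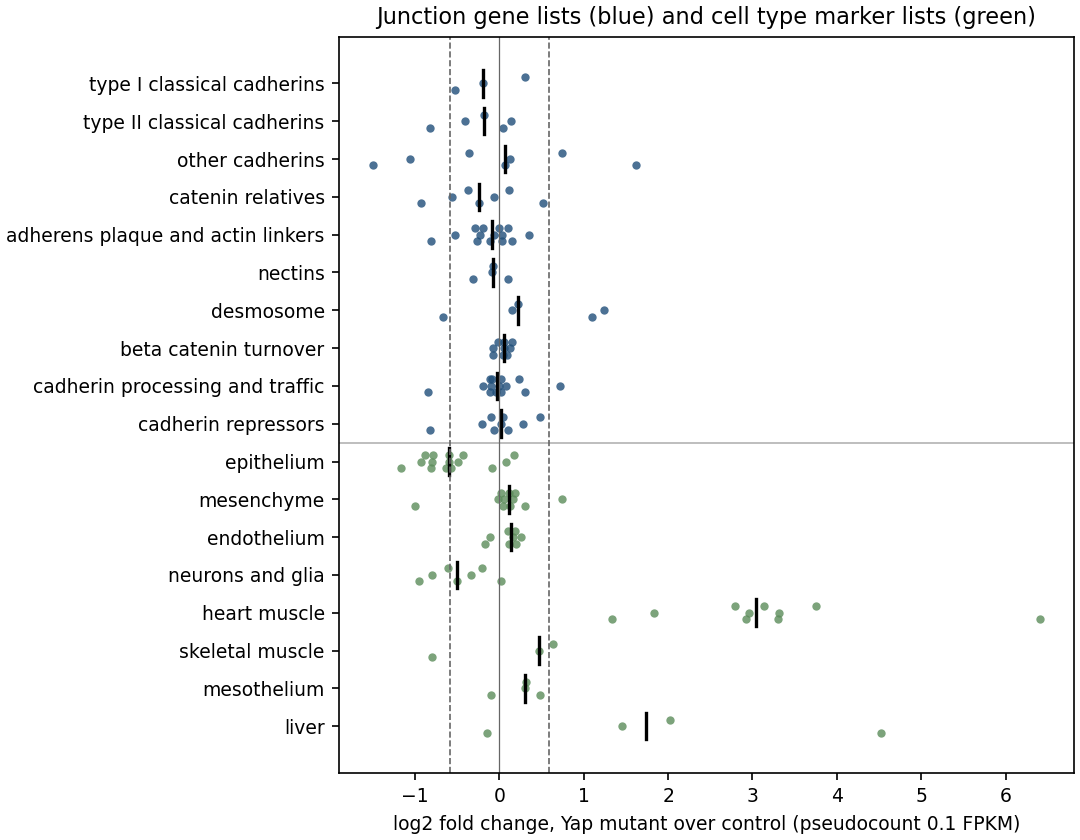
Log2 of the mutant over the control value (0.1 FPKM added to each) for each locus above the minimum in the junction lists (blue) and the cell type marker lists (green), with list medians as black bars and dashed lines at 1.5-fold. The genes of β-catenin turnover lie between -0.08 and 0.15, the epithelial markers have a median of -0.60 and the heart muscle markers one of 3.05. Set relative to the epithelial median, the medians of all 10 junction lists would lie above 0, and 3.21% of tested loci below it.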

How the data were processed

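Stranded paired-end RNA-Seq libraries were made from whole lungs at 12.5 *dpc*, 3 per genotype. The submitters' processing notes name TopHat, Cuffdiff and mm10, and the methods name the Maverix platform; neither versions nor settings were found there. The authors summarised the libraries of each genotype to 1 FPKM value per locus in the deposited table of all loci; the unit was taken from the Cuffdiff layout. The authors' own log2 fold changes, p-values and list of changed loci, which hold their comparison, were not used. No column (0) belonged to other samples. The column named control was taken as wild type.

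The files hold no value per library and no depth, so no test, error or paired comparison was made. Fold changes were computed here with 0.1 FPKM added to each value, over the 12716 loci whose values averaged 1 FPKM or more, and calls needed 1.5-fold. The fold and call steps were tested on simulated data, with changes well past 1.5-fold put on control values of at least 5 FPKM. That checked the code and did not cover lower levels, such as those of *Ctnnd2*. Loci with several symbols (351) were counted under each symbol. Locus starts count from 0 (with 1 added, 9315 of 21012 matched the RefSeq start, against 618 without), so 1 was added, and all 10 loci overlapped their RefSeq gene on GRCm38. Motifs and shared runs were found by exact match, the latter in the longest coding sequence of each gene. Python 3.11.15, numpy 2.4.6, pandas 2.3.3 and matplotlib 3.10.9 were used.

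The genes and lists were chosen with earlier results of these data known. All 10 genes and *Yap1* are named; from each junction list, the genes past 1.5-fold and the 2 with the highest mean; from each marker list, the 2 with the highest mean and any listed at 0. Others are named as context, after their values were seen. The junction lists were type I, type II and other cadherins, catenin relatives, plaque and actin linkers, nectins, desmosomes, β-catenin turnover, cadherin processing and traffic, and cadherin repressors. The marker lists were epithelium, mesenchyme, endothelium, neurons and glia, heart muscle, skeletal muscle, mesothelium and liver. Both current and older symbols were looked up, and *Dchs2* and *Fer* matched no locus. Alternatives tried were 0 or 1 FPKM added, no minimum or one of 5 FPKM, centring on all loci or on the epithelial markers, loci with 1 symbol, and bounds of 1.25-fold and 2-fold.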

Additional observations from a re-analysis of the deposited data

How the results depend on the processing

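No paired analysis was possible because the table gives 1 pooled value per genotype, and for the same reason no library could be left out. The calls (*Cdh11* and *Ctnnd2* lower, *Ctnna2* higher) were the same with 0 or 1 FPKM added, with no minimum, with centring on all tested loci and with loci of 1 symbol. With 1 FPKM added, the log2 fold changes were -1.20 for *Ctnnd2* and 1.36 for *Ctnna2*. The number called lower was 1 with a minimum of 5 FPKM, which leaves out *Ctnnd2* (1.91% of tested loci), 1 (*Ctnnd2*) at 2-fold (1.28% of loci), and 3, with *Cdh3* added, at the looser bound (6.80% of loci). Relative to the epithelial markers, 1 gene was called lower (*Ctnnd2*, beside 0.841% of loci) and 5 higher (*Cdh2*, *Ctnna1*, *Ctnna2*, *Ctnnd1* and *Jup*, beside 52.1% of loci). A lower value was then left in 2 genes (*Ctnnd2* and *Cdh11*, at -0.22) and in 3.21% of loci, and 4 genes changed sign, since the construction adds 0.60 to the log2 fold change of every locus. Low values such as those of *Ctnnd2* carry a counting error that is not given.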

Other observations

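Cadherins outside the classical type were called in both directions. Of 7 above the minimum, 2 were called lower and 2 higher in the mutants, beside 3.30% and 4.44% of the tested loci. Their log2 fold changes ran from -1.50 to 1.63 around a median of 0.07. *Cdh16*, *Celsr1* and *Cdh13* had means of 1 to 10 FPKM, where 5.73% of loci were called lower and 8.15% higher. *Cdh16*, a cadherin gene known from kidney epithelium, had 5.02 FPKM in control and 1.71 FPKM in mutant lungs. *Celsr1*, a planar cell polarity gene of epithelia, had 8.25 and 3.90 FPKM. The higher ones were *Cdh13* (T-cadherin, which lacks a cytoplasmic tail), with 0.526 and 1.83 FPKM, and *Fat4*, with 8.61 and 14.4 FPKM. *Dchs1*, the ligand of FAT4, and *Fat1* were the most abundant, with log2 fold changes of 0.13 and 0.07.

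Desmosome genes were scarce, with sums of 15.9 FPKM in control and 22.1 FPKM in mutant lungs. Of 5 above the minimum, 1 was called lower (*Evpl*, with 1.41 and 0.852 FPKM) and 2 higher, with a median of 0.22. All 5 had means of 1 to 10 FPKM, where 5.73% of loci were called lower and 8.15% higher. The higher ones were *Dsc2*, a desmosomal cadherin gene also expressed in heart muscle, with 2.69 and 6.48 FPKM, and *Perp*, with 1.61 and 3.56 FPKM. The most abundant besides *Dsc2* was *Dsp*, which encodes desmoplakin, with 5.10 and 5.95 FPKM. *Pkp2*, a plakophilin gene that heart muscle also uses, had 2.42 and 3.53 FPKM. Heart muscle markers were higher in the same lungs, with sums of 125.5 and 917 FPKM. The part of heart tissue in the values of *Dsc2*, *Perp* and *Pkp2* was not tested. *Dsg3* and *Dsg1a* were listed at 0 in both genotypes and *Dsc1* in mutant lungs. Skeletal muscle markers were scarce in both genotypes, with sums of 6.04 and 6.17 FPKM and, of 3 above the minimum, 1 called in each direction. The highest of them, *Acta1* and *Tnnt3*, had 1.90 and 0.979 FPKM in control and 2.68 and 1.58 FPKM in mutant lungs. In the liver list *Afp* had 5.42 and 22.3 FPKM and *Ttr* had 0.492 and 13.5 FPKM.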
